A study of Mus musculus with 6 samples.

Results

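The PDGF, VEGF and HGF axis was followed here through 10 genes in mesenchymal stromal cells of mouse hindlimb muscle and lymph node. The genes were given by name, with earlier results of these data known. They were the receptors Pdgfra and Pdgfrb, the receptor-like gene Pdgfrl and the ligands Pdgfa, Pdgfc and Pdgfd. The others were the ligands Vegfa and Vegfc, and the pair Hgf and Met. All 10 were found among the 52997 gene symbols of the count table, and 9 had enough counts to be tested. The cells came from resting C57BL/6 mice aged 8 weeks, from hindlimb skeletal muscle in 3 libraries and from pooled inguinal, axillary, brachial and cervical nodes in 3 libraries, with 1000 sorted cells per library. The groups differ in tissue of origin, and the labels name no treatment, transgene or mutation in either. The surface markers of the sort are not stated in the sources used, and PDGFRA protein is a common choice for stromal cells, so a high Pdgfra level may have been selected for and is given as a description.

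Platelet-derived growth factors are secreted dimers that bind the receptor tyrosine kinases PDGFRA and PDGFRB and drive growth and migration of fibroblasts and mural cells. In skeletal muscle, PDGFRA marks the fibro-adipogenic progenitors of the stroma, and in lymph nodes both receptors are found on reticular fibroblasts. VEGF-A acts on blood endothelium and VEGF-C on lymphatic endothelium, and stromal cells are a source of both. HGF is secreted by stromal cells as an inactive precursor and acts through MET, a receptor of epithelial cells and of muscle stem cells.

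Muscle library 4 stood apart from the other 5 libraries and is shown with an open symbol or left out where a result rests on it. It held 415460 counts, where the other libraries held between 1256276 and 2397134. Its Pearson r with muscle libraries 2 and 3 was at most 0.705 over log2 CPM (counts scaled to the library size, given per 1000000) of all tested genes, where muscle libraries 2 and 3 had r = 0.952 with each other. Summed levels of 7 B cell markers reached 1874 CPM in it and between 15.4 and 260 CPM elsewhere, those of 8 T cell markers 427 CPM against 2.28 to 10.9 CPM, and those of 10 myeloid markers 228 CPM against 15.3 to 30.05 CPM. All 10 fibroblast markers were detected in both tissues, at a summed 67184 to 86134 CPM in muscle cells and 84272 to 104792 CPM in lymph node cells. Of 8 reticular cell markers, Cxcl13 measured 341 to 410 CPM in lymph node cells and at most 14.8 CPM in muscle cells. Enpp2 measured 403 to 529 CPM in lymph node cells and 145 to 484 CPM in muscle cells. Ccl21a had 0 counts in every library, and Ccl19, Madcam1, Tnfsf11, Il7 and Bst1 reached at most 6.87 CPM in lymph node cells. The titles of a pair of muscle samples carry the same number, so p-values measure the spread between libraries, which may be in part technical. A lower level in such bulk libraries cannot be told apart from fewer cells of a type that express the gene.

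Of the 10 genes, Pdgfrl was higher in muscle cells and was the member called with all 6 libraries, 8 tested members were not called and Pdgfa was too low to test. Across all 10823 tested genes, 4.32% were called (1.46% up and 2.86% down in muscle cells) at a Benjamini-Hochberg adjusted p under 0.05 in edgeR's two-sided quasi-likelihood test. Without muscle library 4, Pdgfrl was again called higher and Pdgfd and Hgf were called lower, where 12.4% of 11246 tested genes were called (4.79% higher and 7.58% lower). Of the 9 tested members, 3 reached an unadjusted p under 0.05, 1 higher (Pdgfrl) and 2 lower (Pdgfd and Hgf), and DESeq2 and limma-voom also called 1 higher and 0 lower. Levels of the tissues did not overlap for 5 of the 9 tested members, where this held for 23.6% of all tested genes. Muscle was higher for 2 of these (Pdgfrl and Pdgfc), beside 9.93% of all tested genes, and lower for 3 (Pdgfra, Pdgfd and Hgf), beside 13.7%. Without muscle library 4 the numbers were 7 of 9 and 39.7%.

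**Figure D1:**
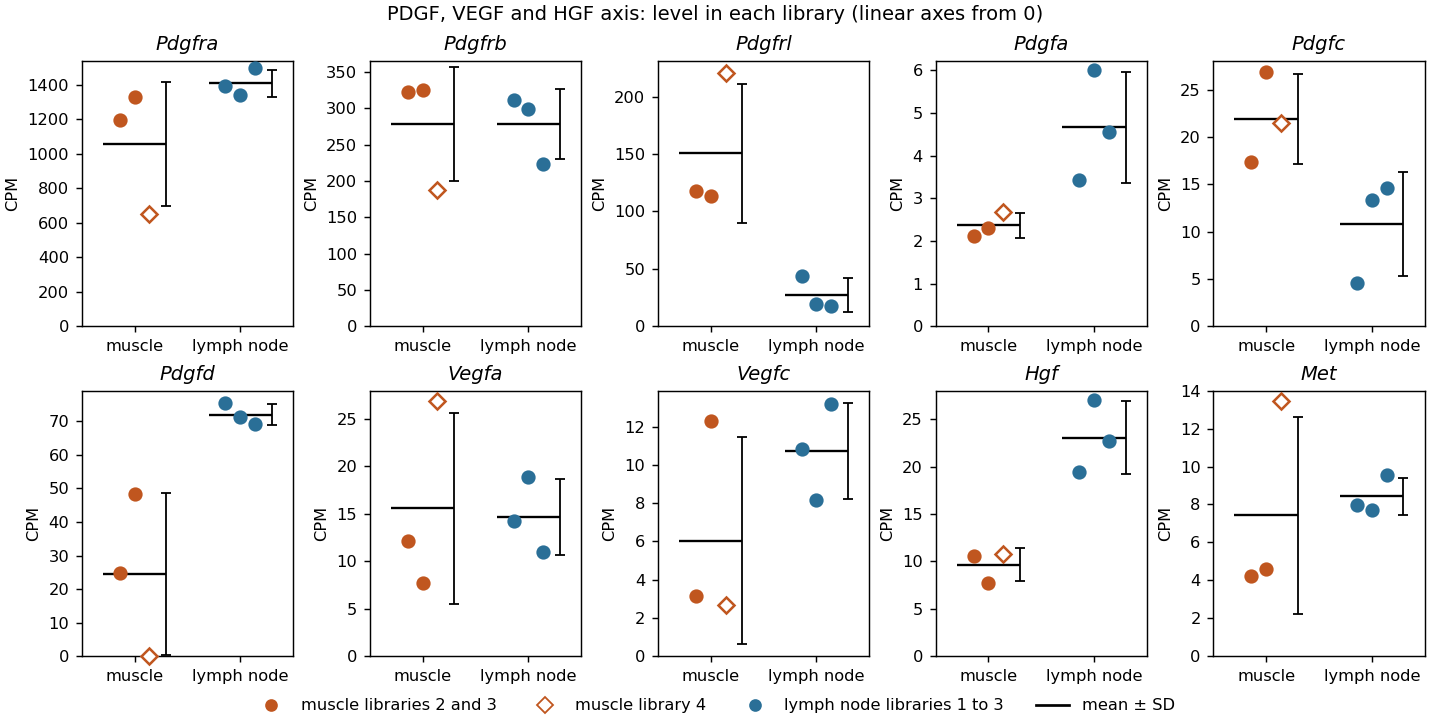
Level of each gene in CPM, scaled to library size, in every library, with muscle left of lymph node on linear axes that start at 0; horizontal lines are means and vertical bars SD (n = 3 libraries). Pdgfrl is higher in every muscle library than in any lymph node library, Pdgfd and Hgf are lower in every muscle library, and the open symbol of muscle library 4 is the lowest of all 6 for Pdgfra, Pdgfrb, Pdgfd and Vegfc and the highest for Pdgfrl, Vegfa and Met.

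Levels between genes were compared per kilobase of annotated exon. Pdgfra stood first in both tissues, with 105.5 ± 35.9 CPM per kilobase in muscle and 140.4 ± 7.88 CPM per kilobase in lymph node (SD, n = 3 each), above 97.8% and 97.9% of 10687 tested genes with a length. Pdgfrb was second in both, with 50.8 ± 14.3 CPM per kilobase in muscle and 50.8 ± 8.72 CPM per kilobase in lymph node. That placed Pdgfrb above 94.9% and 93.7% of these genes. Both receptors were among the more abundant transcripts of the sorted cells of either tissue, and the sort may have selected for Pdgfra. In muscle Pdgfrl came next with 48.2 ± 19.3 CPM per kilobase, which lies within the spread of Pdgfrb. In lymph node the third place was held by Pdgfd with 22.8 ± 0.995 CPM per kilobase, and Pdgfrl followed with 8.64 ± 4.70. In muscle Pdgfd averaged 7.74 ± 7.68 CPM per kilobase, above 59.1% of these genes. It was followed in muscle by Pdgfc with 4.31 ± 0.935, Vegfa 3.63 ± 2.35 and Vegfc 2.47 ± 2.21 CPM per kilobase, and neighbours in this order overlapped. Hgf averaged 1.34 ± 0.239 CPM per kilobase in muscle and 3.21 ± 0.534 in lymph node. Met averaged 0.967 ± 0.679 CPM per kilobase in muscle and 1.098 ± 0.129 in lymph node, and Pdgfa 0.759 ± 0.0943 and 1.495 ± 0.416. Met and Pdgfa thus stood at the low end in both tissues. Hgf was above 6.65% of these genes in muscle and above 28.3% in lymph node, where its mean was higher than that of Pdgfc. In lymph node Vegfc averaged 4.38 ± 1.03, Vegfa 3.43 ± 0.935 and Pdgfc 2.13 ± 1.07 CPM per kilobase, again overlapping with their neighbours.

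Pdgfra, which encodes the receptor for most PDGF dimers, is annotated on chromosome 5 at 75152292 to 75198215 (GRCm38, plus strand). Its level was 1193, 1331 and 650.5 CPM in muscle libraries 2, 3 and 4, against 1392, 1338 and 1494 CPM in lymph node libraries 1, 2 and 3. Every muscle library lay below every lymph node library, muscle library 3 by a small margin and muscle library 4 by a wide one. Muscle minus lymph node, the difference was -0.41 ± 0.26 on the log2 scale (SE, adjusted p = 0.536, edgeR) with a 95% interval from -0.98 to 0.17. Leaving out muscle library 4 gave -0.17 ± 0.13 (adjusted p = 0.498).

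Pdgfrb, the receptor for PDGF-B and PDGF-D dimers and a marker of pericytes as well as fibroblasts, measured 322, 325 and 188 CPM in muscle libraries 2, 3 and 4, against 312, 299 and 224 CPM in lymph node libraries 1, 2 and 3. The tissues overlapped, with muscle library 4 and lymph node library 3 the lowest of their tissues and the other 4 libraries close together. Muscle minus lymph node came to 0.02 ± 0.24 on the log2 scale (adjusted p = 0.989, 95% interval from -0.53 to 0.57). Leaving out muscle library 4 gave 0.21 ± 0.16 (adjusted p = 0.489), and its sign changed in 5 of 18 alternatives. The 10 mural markers summed to 157 to 183 CPM in muscle cells and 195 to 217 CPM in lymph node cells. Of the 4 mural markers tested, Cspg4 was higher in muscle, Abcc9 was lower, and Notch3 and Des were not called. Cspg4 measured 69.9 to 81.5 CPM in muscle cells and 6.85 to 11.4 CPM in lymph node cells (log2 fold change 3.01 ± 0.27, adjusted p = 4.91e-04, edgeR). Abcc9 measured 17.4 to 37.6 CPM in muscle cells and 122 to 169 CPM in lymph node cells (-2.59 ± 0.30, adjusted p = 0.00143). Over all tested genes, 1.46% were called higher and 2.86% lower. Without muscle library 4, 2 of 5 tested mural markers were called higher (Cspg4 and Des) and 1 lower (Abcc9), beside 4.79% and 7.58% of all tested genes. Des was then at 1.37 ± 0.24 (adjusted p = 0.00148), against 1.13 ± 0.37 with all libraries (adjusted p = 0.16). Of the mural markers not tested with all libraries, Rgs5, Myh11 and Mcam were highest in muscle library 4, at 10.8, 16.1 and 26.9 CPM. These values rest on 4, 6 and 10 counts, and the same genes reached at most 5.14 CPM in any other library. Acta2 and Kcnj8 had 0 counts in muscle library 4, and Notch3, at 5.38 CPM, was at its lowest there. Tagln was at 0 in every muscle library and at most 0.571 CPM in lymph node. The part of mural cells in the Pdgfrb level was not tested.

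Pdgfrl encodes a secreted protein that resembles the ligand-binding part of a PDGF receptor and lacks a kinase domain. It is annotated on chromosome 8 at 40926212 to 40990785. Its level was 118, 114 and 220.4 CPM in muscle libraries 2, 3 and 4, from 224, 148 and 82 counts, against 44.0, 19.3 and 17.8 CPM in lymph node libraries 1, 2 and 3, from 77, 45 and 39 counts. The lowest muscle library was thus above the highest lymph node library, and muscle library 4 was the highest of all. Pdgfrl rose by 2.45 ± 0.41 on the log2 scale (adjusted p = 0.00942), a 5.47-fold higher level in muscle. It rose by 2.13 ± 0.28 when muscle library 4 was left out (adjusted p = 1.32e-04). The call was lost without lymph node library 2 (adjusted p = 0.085) and without lymph node library 3 (adjusted p = 0.0765), and in both cases lymph node library 1, the highest of its tissue, was kept.

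The count of Pdgfrb as a share of both kinase receptors does not depend on library scaling. It was 21.2%, 19.6% and 22.4% in muscle libraries 2, 3 and 4, against 18.3%, 18.3% and 13.0% in lymph node libraries 1, 2 and 3. All 3 muscle shares were above all 3 lymph node shares. The exact 95% binomial intervals (Clopper-Pearson) of muscle library 3 (18.0% to 21.4%) and lymph node library 1 (16.9% to 19.7%) overlapped. The means were 21.1 ± 1.41% in muscle and 16.5 ± 3.05% in lymph node (SD, n = 3 each), a gap of 4.57 percentage points that shrank to 2.81 without lymph node library 3. Such intervals cover counting error only, because copies made by PCR were not told apart. The shares are a description, and no test was run on them.

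Pdgfd, Pdgfc and Hgf are the tested ligands among the 10 genes whose levels did not overlap between the tissues. The bases before their starts are shown so that the 3 promoters can be read beside each other. Each sequence is the 250 bases before the RefSeq start (GRCm38.p6, plus strand, 5′ to 3′), at chr9:6168236-6168485 for Pdgfd, chr3:81036166-81036415 for Pdgfc and chr5:16553245-16553494 for the upstream start of Hgf. Capitals mark matches on either strand to the AP-1 site (TGANTCA), the hypoxia-response core (ACGTG or GCGTG) or the TATA box (TATAAA).
Pdgfd: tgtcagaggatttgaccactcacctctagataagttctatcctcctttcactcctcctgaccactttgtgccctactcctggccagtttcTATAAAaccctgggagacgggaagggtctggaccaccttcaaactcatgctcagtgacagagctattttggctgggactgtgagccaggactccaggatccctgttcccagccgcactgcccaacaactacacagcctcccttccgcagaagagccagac
Pdgfc: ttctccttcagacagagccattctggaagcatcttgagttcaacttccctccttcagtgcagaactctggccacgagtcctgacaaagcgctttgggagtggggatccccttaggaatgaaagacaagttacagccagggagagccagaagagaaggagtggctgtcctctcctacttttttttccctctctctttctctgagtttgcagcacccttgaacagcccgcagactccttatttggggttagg
Hgf: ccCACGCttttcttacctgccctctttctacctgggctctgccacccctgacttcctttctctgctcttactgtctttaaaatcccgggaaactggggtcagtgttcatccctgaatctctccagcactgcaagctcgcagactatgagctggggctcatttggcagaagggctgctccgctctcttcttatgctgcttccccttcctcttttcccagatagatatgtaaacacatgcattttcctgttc
Pdgfd had the TATA letters at position -160 and Hgf the hypoxia-response letters at position -248, where -1 is the last base before the start. Pdgfc had no match. A match is of letters only, and whether any is in use was not tested. The window of a further Hgf start, at chr5:16553651-16553900 and not shown, had no match. Of 32851 RefSeq windows of this length, 12.4% held the TATA letters, 38.6% the hypoxia-response letters and 6.75% the AP-1 letters. Among the 8 members whose windows were read, the AP-1 letters were found in that of Met alone. Pdgfrb and Pdgfrl are named only.

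Pdgfd encodes PDGF-D, which is secreted in a latent form and acts mainly on PDGFRB. It is annotated on chromosome 9 at 6168584 to 6378850. Its level was 24.8, 48.4 and 0 CPM in muscle libraries 2, 3 and 4, from 47, 63 and 0 counts, against 75.4, 71.3 and 69.2 CPM in lymph node libraries 1, 2 and 3, from 132, 166 and 152 counts. The lymph node libraries were close together, while the muscle libraries were spread and all lower. A count of 0 in muscle library 4 allows a level of up to 8.06 CPM (3 counts), which is below the measured level of either other muscle library. With all libraries the log2 fold change was -1.33 ± 0.53 and not called (adjusted p = 0.265). The value without muscle library 4 was -1.02 ± 0.24, called lower (adjusted p = 0.0109). The call is therefore absent or present with a single library, although every muscle library pointed the same way.

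Pdgfc encodes PDGF-C, a latent ligand that acts mainly on PDGFRA. It is annotated on chromosome 3 at 81036416 to 81214040. Its level was 17.4, 26.9 and 21.5 CPM in muscle libraries 2, 3 and 4, from 33, 35 and 8 counts, against 4.57, 13.3 and 14.6 CPM in lymph node libraries 1, 2 and 3, from 8, 31 and 32 counts. The levels did not overlap, and muscle library 4 lay between the other muscle libraries. Its log2 fold change was 0.99 ± 0.46 and did not pass the threshold (adjusted p = 0.364, 95% interval from -0.05 to 2.03). The value was 0.96 ± 0.40 without muscle library 4 (adjusted p = 0.16).

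The balance of these latent ligands is given within each library as a description. The pair was chosen because Pdgfd was lower and Pdgfc higher in every muscle library, which fixes the direction of the shares. Pdgfd made up 58.8%, 64.3% and 0% of the counts of both genes in muscle libraries 2, 3 and 4, against 94.3%, 84.3% and 82.6% in lymph node libraries 1, 2 and 3. The 0% of muscle library 4 rests on 8 counts in all and allows up to 36.9%. The means were 41.0 ± 35.6% in muscle and 87.1 ± 6.32% in lymph node (SD, n = 3 each), a difference of -46.0 percentage points that was -25.5 without muscle library 4. Per kilobase of exon, the level of Pdgfd was above that of Pdgfc in muscle libraries 2 and 3 and in all lymph node libraries, by a smaller margin in the muscle libraries.

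Pdgfa, which encodes the PDGF-A chain that binds PDGFRA alone, had 4, 3 and 1 counts in muscle libraries 2, 3 and 4, against 6, 14 and 10 counts in lymph node libraries 1, 2 and 3. These counts equal 2.11, 2.31 and 2.69 CPM in muscle and 3.43, 6.01 and 4.55 CPM in lymph node. The levels did not overlap, but 8 counts in muscle against 30 in lymph node fell below the filter for testing. With no filter the log2 fold change was -1.15 ± 0.96 (adjusted p = 0.724, edgeR), in a fit that took little account of the gene's own spread between libraries. An antisense gene overlaps 813 bases of Pdgfa exons and 24.3% of its 25-base words occur in other genes, so part of these few reads may belong elsewhere.

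**Figure D2:**
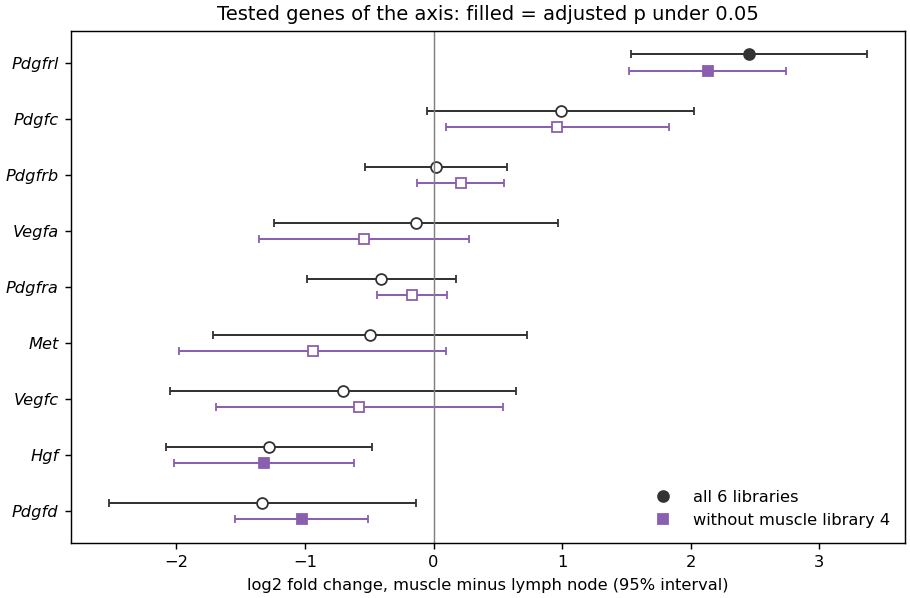
Log2 fold change, muscle minus lymph node, of the 9 tested genes with 95% intervals, from all 6 libraries (circles) and without muscle library 4 (squares); filled symbols passed an adjusted p of 0.05. Pdgfrl at 2.45 passes with and without muscle library 4, while Pdgfd (-1.33 and -1.02) and Hgf (-1.28 and -1.32) pass without it.

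Vegfa, the main growth factor for blood vessels and a gene induced by hypoxia, is annotated on chromosome 17 at 46016993 to 46032369. It measured 12.1, 7.68 and 26.9 CPM in muscle libraries 2, 3 and 4, against 14.3, 18.9 and 10.9 CPM in lymph node libraries 1, 2 and 3. Muscle library 4 was above every other library and muscle library 3 below, so the tissues overlapped. On the log2 scale the difference was -0.14 ± 0.49 (adjusted p = 0.943, 95% interval from -1.24 to 0.97), and -0.54 ± 0.38 without muscle library 4 (adjusted p = 0.451).

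Vegfc, the main growth factor for lymphatic vessels, measured 3.16, 12.3 and 2.69 CPM in muscle libraries 2, 3 and 4, from 6, 16 and 1 counts, against 10.8, 8.16 and 13.2 CPM in lymph node libraries 1, 2 and 3, from 19, 19 and 29 counts. Muscle libraries 2 and 4 were lower than all lymph node libraries and muscle library 3 lay among them. On the log2 scale the difference was -0.71 ± 0.60 (adjusted p = 0.671). As a share of the counts of both VEGF genes, Vegfc was 20.7%, 61.5% and 9.09% in muscle libraries 2, 3 and 4, against 43.2%, 30.2% and 54.7% in lymph node libraries 1, 2 and 3. The tissues overlapped. The exact 95% intervals of muscle library 2 (7.99% to 39.7%) and muscle library 3 (40.6% to 79.8%) did not overlap. These intervals take each count as independent, and copies made by PCR were not told apart. Whether the shares differ within muscle was not tested.

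**Figure D3:**
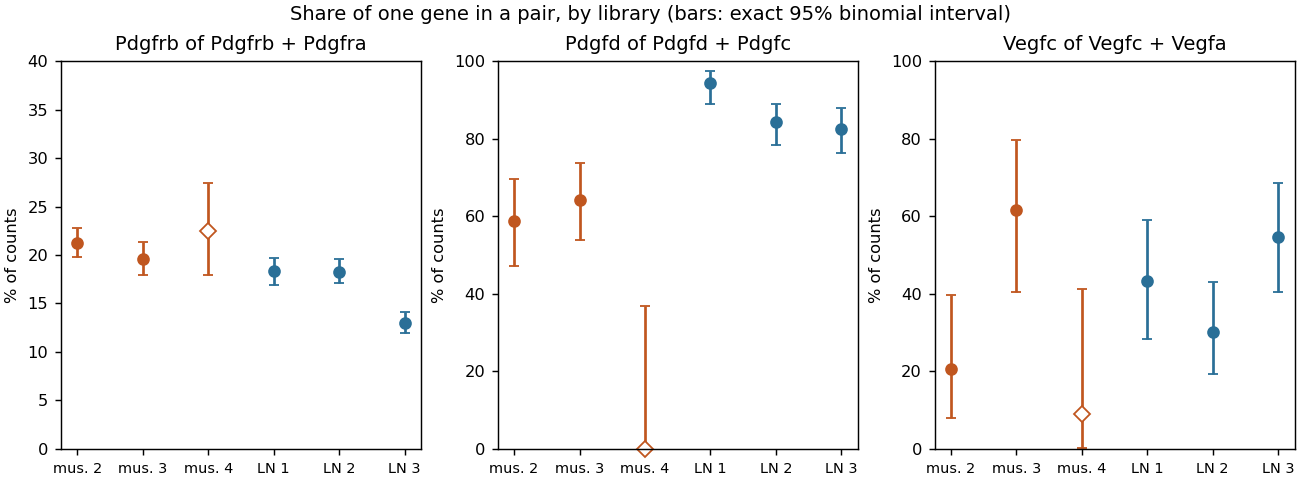
Share of Pdgfrb in Pdgfrb plus Pdgfra (left, axis up to 40%), of Pdgfd in Pdgfd plus Pdgfc (middle) and of Vegfc in Vegfc plus Vegfa (right), as percent of counts in each muscle (mus.) and lymph node (LN) library with exact 95% binomial intervals. Pdgfd holds 0% to 64.3% in muscle and 82.6% to 94.3% in lymph node, whereas the Vegfc shares of the tissues overlap.

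Hgf encodes hepatocyte growth factor, the ligand of MET, and is annotated on chromosome 5 at 16553495 to 16620152. Its level was 10.5, 7.68 and 10.8 CPM in muscle libraries 2, 3 and 4, from 20, 10 and 4 counts, against 19.4, 27.1 and 22.8 CPM in lymph node libraries 1, 2 and 3, from 34, 63 and 50 counts. Every muscle library was lower than every lymph node library, and muscle library 4 was level with muscle library 2. For Hgf the log2 fold change was -1.28 ± 0.36 (adjusted p = 0.0904, edgeR), a difference that missed the threshold. It was -1.32 ± 0.33 without muscle library 4 and then called lower (adjusted p = 0.0147), so its size hardly moved while its p did. A further gene model overlaps 484 bases of Hgf exons on the same strand, and 6.41% of the 25-base words of Hgf occur in other genes.

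Met, the HGF receptor, measured 4.22, 4.61 and 13.4 CPM in muscle libraries 2, 3 and 4, from 8, 6 and 5 counts, against 7.99, 7.73 and 9.56 CPM in lymph node libraries 1, 2 and 3, from 14, 18 and 21 counts. Muscle libraries 2 and 3 were lower than every lymph node library, whereas muscle library 4, on 5 counts, was the highest of all. The log2 fold change was -0.49 ± 0.54 (adjusted p = 0.759), and -0.94 ± 0.48 without muscle library 4 (adjusted p = 0.269). The 10 markers of muscle stem cells, which express Met, summed to 153 to 221 CPM in muscle cells and 214 to 259 CPM in lymph node cells, and Sdc4 made up 91.3% of that level. Of the others, Myf5 had 0 counts in all libraries, Pax7 reached at most 1.54 CPM and Itga7 at most 9.11 CPM. In muscle library 4, where Met was highest, Megf10 reached 18.8 CPM and Myod1 5.38 CPM, against at most 6.15 and 0.859 CPM in any other library. These values rest on 7 and 2 counts, and Chodl and Calcr, on 2 and 1 counts, were also at their highest there. Sdc4 at 118 CPM and Itga7 at 2.69 CPM were at their lowest in that library, and Pax7, Cdh15 and Fgfr4 had 0 counts in it. The part of these cells in the Met level was not tested.

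The receptors of the VEGF ligands and the remaining ligands were read as a further list, together with Mst1 and Mst1r. Of its 9 measured genes, 3 were tested, 1 was lower in muscle, 0 were higher and 2 were not called, with a median log2 fold change of -0.97 beside 0.02 over all tested genes. Without muscle library 4 all 3 were called, 1 higher (Pgf) and 2 lower (Vegfd and Mst1r, Mst1r at -0.75 ± 0.21, adjusted p = 0.0284). Over all tested genes, 2.86% were called lower and 1.46% higher with all libraries, and 7.58% and 4.79% without muscle library 4. Vegfd, the closest relative of Vegfc and a ligand of lymphatic endothelium, measured 20.6, 25.4 and 69.9 CPM in muscle libraries 2, 3 and 4, against 113, 132 and 119 CPM in lymph node libraries 1, 2 and 3. All muscle libraries were lower, and muscle library 4 lay between its tissue and the other. The log2 fold change was -1.88 ± 0.39 (adjusted p = 0.0284) and -2.43 ± 0.19 without muscle library 4 (adjusted p = 1.05e-06), a call lost when any of the other 5 libraries was left out (highest adjusted p 0.164). Pgf, which encodes the VEGFR1 ligand placental growth factor, measured 48.0, 39.2 and 10.8 CPM in muscle libraries 2, 3 and 4, against 9.71, 25.3 and 10.02 CPM in lymph node libraries 1, 2 and 3. It overlapped between tissues and was called higher when muscle library 4 was left out (log2 fold change 1.51 ± 0.35, adjusted p = 0.00995). The endothelial receptor genes Flt1, Kdr and Flt4 stayed at or below 5.38 CPM in every library and were not tested. Of the endothelial marker list, Cldn5 had 0 counts in all libraries and Cdh5 at most 1.54 CPM, while Pecam1 at 59.1 CPM, Prox1 at 29.6 CPM and Lyve1 at 24.2 CPM were high in muscle library 4 and at most 4.61 CPM in every other library. Tek made up 87.0% of the summed level of 253 to 393 CPM in muscle cells and 278 to 364 CPM in lymph node cells, and the part of endothelial cells in these levels was not tested.

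Of the co-receptors and partners that hold or present these ligands, 8 of 10 were tested. With all libraries 0 were called by edgeR, DESeq2 or limma-voom, beside 2.86% lower and 1.46% higher over all tested genes in edgeR. At an unadjusted edgeR p under 0.05, 1 was higher and 0 lower, and the median log2 fold change was 0.23. Without muscle library 4, 3 were called higher (Nrp2, Cd44 and Sdc2) and 0 lower, beside 4.79% and 7.58% of all tested genes. The neuropilin Nrp1, a VEGF co-receptor, measured 272 ± 44.8 CPM in muscle cells and 299.8 ± 43.8 CPM in lymph node cells (SD, n = 3 each; log2 fold change -0.15 ± 0.20, adjusted p = 0.805). Nrp2, a co-receptor of VEGF-C, measured 26.9, 26.9 and 0 CPM in muscle libraries 2, 3 and 4, against 16.6, 14.2 and 11.8 CPM in lymph node libraries 1, 2 and 3. Muscle library 4 thus lay below every lymph node library for Nrp2, whereas muscle libraries 2 and 3 lay above. The call without muscle library 4 was higher in muscle (0.92 ± 0.28, adjusted p = 0.0438).

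PDGF-C, PDGF-D and HGF are activated outside the cell by serine proteases. A list of such proteases, their inhibitors and ligand-binding proteins had 13 tested genes. Of these, 1 was lower in muscle, 0 higher and 12 not called, with a median log2 fold change of 0.17. Over all tested genes, 2.86% were called lower and 1.46% higher with all libraries. Without muscle library 4, 2 were higher (Plau and Pcsk6) and 1 lower (Plat), beside 4.79% and 7.58% of all tested genes. Plat encodes tissue plasminogen activator, a protease known to activate PDGF-C. It measured 206, 223 and 107.5 CPM in muscle libraries 2, 3 and 4, against 662, 449 and 570.0 CPM in lymph node libraries 1, 2 and 3. All muscle libraries were lower (log2 fold change -1.61 ± 0.28, adjusted p = 0.0108), and the call was lost without any 1 lymph node library (highest adjusted p 0.0771). Plau, the urokinase that activates PDGF-D and HGF, measured 509.5, 559 and 159 CPM in muscle libraries 2, 3 and 4, against 351, 355 and 402 CPM in lymph node libraries 1, 2 and 3. It overlapped between tissues through muscle library 4 (0.17 ± 0.37, adjusted p = 0.891), and without that library it was called higher in muscle (0.53 ± 0.13, adjusted p = 0.0169).

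Below the receptors, adaptors, RAS proteins and kinases relay the signal. Of 28 such genes tested, 1 was lower in muscle, 0 were higher and 27 were not called, and their median log2 fold change was 0.01 beside 0.02 over all tested genes. DESeq2 and limma-voom each called 1 higher as well, Rasa1, as did edgeR without muscle library 4 (0.87 ± 0.21, adjusted p = 0.0133), against 1.07 ± 0.26 with all libraries (adjusted p = 0.0583). The called gene, Stat3, a transcription factor downstream of MET and of cytokine receptors, measured 145 ± 9.30 CPM in muscle cells and 249 ± 9.11 CPM in lymph node cells (-0.78 ± 0.17, adjusted p = 0.033). Total-count scaling, no filter, or the loss of any library but muscle library 4 ended its call (highest adjusted p 0.197). Of 15 tested genes that turn receptors over or damp their signals, 3 were lower, 0 higher and 12 not called. Over all tested genes, 2.86% were called lower and 1.46% higher. The median log2 fold change of the 15 genes was -0.21, and 0.01 without muscle library 4. DESeq2 called 1 of them higher, Ptprb (edgeR log2 fold change 2.34 ± 0.75, adjusted p = 0.151). Socs3 measured 86.7 ± 21.6 CPM in muscle cells and 924 ± 447 CPM in lymph node cells (-3.38 ± 0.36, adjusted p = 0.00114). Errfi1, a feedback inhibitor of the EGF receptor, measured 192 ± 38.3 CPM in muscle cells and 927 ± 74.4 CPM in lymph node cells (-2.28 ± 0.21, adjusted p = 5.5e-04). Both kept their call without any 1 library. Socs1 (-1.84 ± 0.34, adjusted p = 0.0162) was no longer called after the loss of any library but muscle library 4 (highest adjusted p 0.107). Socs3 is also in the list of 26 immediate early genes, which summed to 3525 to 4294 CPM in muscle cells and 23093 to 25617 CPM in lymph node cells, and whose part in these differences was not tested.

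**Figure D4:**
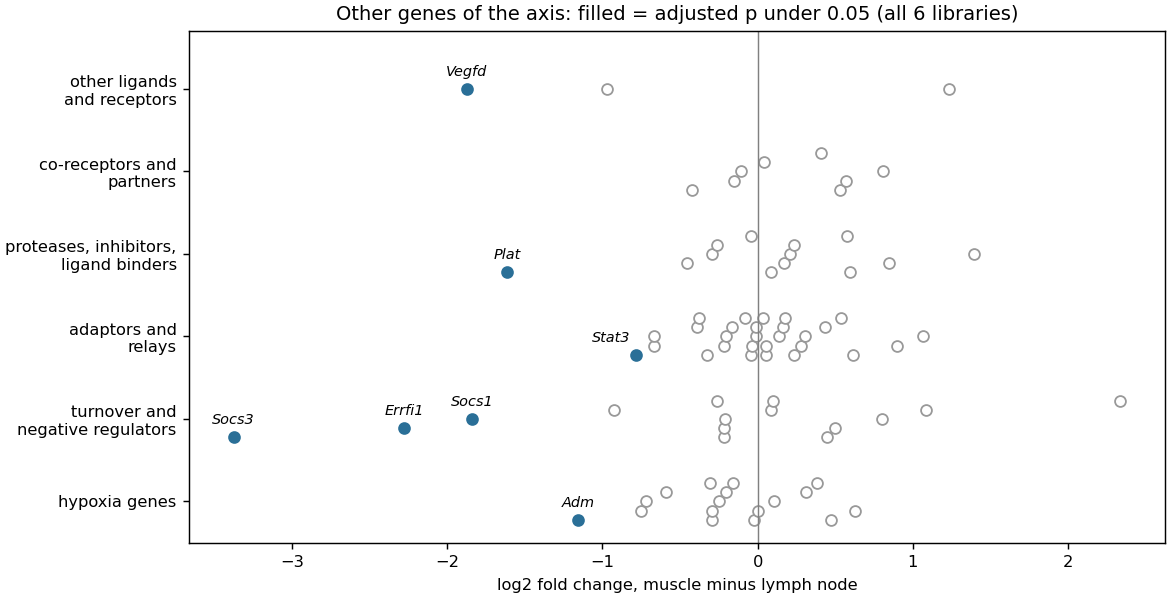
Log2 fold change, muscle minus lymph node, from all 6 libraries for the tested genes of 6 further lists of the axis; each circle is a gene and filled circles passed an adjusted p of 0.05. All 7 called genes are lower in muscle, from Stat3 at -0.78 to Socs3 at -3.38, and none is among the co-receptors. Over all tested genes, 2.86% were called lower and 1.46% higher.

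Hypoxia genes were listed because oxygen controls Vegfa. Of 17 tested, 1 was lower in muscle, 0 were higher and 16 were not called, with a median log2 fold change of -0.20. Over all tested genes, 2.86% were called lower and 1.46% higher with all libraries. The called gene Adm, which encodes the vessel-acting peptide adrenomedullin, measured 103.5 ± 33.6 CPM in muscle cells and 225 ± 14.9 CPM in lymph node cells (-1.15 ± 0.26, adjusted p = 0.0386). The loss of any library but muscle library 4 ended that call (highest adjusted p 0.189). Leaving out muscle library 4 gave 3 lower (Adm, Epas1 and Ldha) and 0 higher genes, beside 7.58% and 4.79% of all tested genes. The hypoxia factor Hif1a measured 143, 114 and 153 CPM in muscle libraries 2, 3 and 4, against 156, 152 and 161 CPM in lymph node libraries 1, 2 and 3, and was not called (-0.20 ± 0.19, adjusted p = 0.701).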

How the data were processed

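The deposited table holds raw counts per gene symbol for 6 libraries, and no value column was left unused. The submitters' processing notes name STAR 2.5.4, featureCounts and mm10. The annotation release, the use of strand and the handling of reads with several alignments are not stated there. The labels' protocols describe poly(A) cDNA, PCR, transposase tagging and paired reads of 25 bases without molecular identifiers. Lymph node columns match sample titles. Muscle columns 2, 3 and 4 match the tissue but not single titles.

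Tests used edgeR 4.0.16 in R 4.3.3: filterByExpr, scaling by TMM, then the quasi-likelihood test of tissue over all genes, with an adjusted p under 0.05. CPM values use the TMM library size. A standard error is each log2 fold change over the square root of its F value, and can understate the error at a handful of counts. Alternatives (18) changed scaling, filter, tool (DESeq2 1.42.0, limma 3.58.1), libraries and the replicate block. The procedure was tested on simulated data. Coordinates, lengths and overlaps come from GENCODE M21 (GRCm38). Promoters of 8 members come from RefSeq (GRCm38.p6).

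Members and lists were chosen with earlier results of these data known. Genes named from the further lists are up to 4 called genes per list by smallest p. Pgf, Mst1r, Nrp1, Nrp2, Cd44, Sdc2, Plau, Pcsk6, Rasa1, Epas1, Ldha, Ptprb, Hif1a, Flt1, Kdr, Flt4 and the markers named were added after their values were seen. A further gene of the protease list is not reported here and was left out of its counts.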

Additional observations from a re-analysis of the deposited data

How the results depend on the processing

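Of 161 values of the 9 tested members over the alternatives, 140 kept direction and side of the threshold, 11 crossed it toward a call (Pdgfd and Hgf), 2 lost the call of Pdgfrl and 8 changed sign. With no filter 1 member was called lower (Pdgfd), and 2 were (Pdgfd and Hgf) under limma-voom with library weights, with muscle libraries 2 and 4 or 3 and 4 summed, and with the replicate block. The fit with no filter used a spread shared over genes (157960 degrees of freedom). Its p-values therefore take little account of the spread of a single gene between libraries. Leaving out each library gave 0 to 1 members called higher and 0 to 2 called lower. Over all genes 468 were called, against 945 with no filter, 1366 with library weights, 222, 1435 and 1266 with muscle libraries 2 and 3, 2 and 4, or 3 and 4 summed, and 142 to 1391 without any 1 library. The replicate block by column number gave 1530. The same-numbered pairs (muscle 2 with lymph node 2 and muscle 3 with lymph node 3) had deviations from tissue means correlated at r = -0.0258 and 0.0208, and only the number links them. Pdgfrb, not called, was -0.14 with no filter, -0.13 with muscle libraries 2 and 3 summed and between -0.14 and 0.21 without any 1 library. Vegfa, not called, was 0.061 with muscle libraries 2 and 3 summed and between -0.54 and 0.22 without any 1 library. For these changes the cause was not tested. Counts were fewest for Pdgfa, Met, Vegfc and Hgf, with 8, 19, 23 and 34 in all muscle libraries together.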
